A study of Mus musculus with 10 samples.

Results

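The vitamin K dependent Gla proteins and the enzymes that carboxylate them were followed through skeletal cells of the mouse. The 8 genes were chosen by name as a pathway, by a rule that uses no measured value but was written with earlier results of these data known. They were Bglap and Bglap2 (osteocalcin), Mgp (matrix Gla protein), Ucma, Gas6, Pros1 (protein S), Ggcx and Vkorc1. Each of the 8 had 1 row in both deposited tables, out of 22583 distinct gene names in the rib chondrocyte table and 22645 in the osteoblast table. The study holds 10 libraries in 4 groups. Rib chondrocytes of the ICR strain were taken at P1 (postnatal day 1) and sorted by a transgenic reporter, Col2a1-ECFP for the Col2+ sort and Col10a1-mCherry for the Col10+ sort of hypertrophic chondrocytes, with 3 libraries a sort. Osteoblasts of the C57BL/6 strain came from digested frontal and rostral parietal skull bone at E17.5, late in gestation, with 2 libraries of genotype Runx2_cHet_KO and 2 of Runx2_cHom_KO. The abbreviations cHet and cHom are taken to mean heterozygous and homozygous conditional loss of Runx2, which the labels do not spell out. Without the transcription factor Runx2 osteoblasts do not form. The sources used here do not give the driver of the deletion, no wild-type osteoblasts were analysed here, and no sorting of the calvarial cells is described.

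Gla proteins carry glutamate residues that are converted after translation to gamma-carboxyglutamate, which binds calcium. The conversion is made in the endoplasmic reticulum by the carboxylase Ggcx with reduced vitamin K, and Vkorc1, the enzyme inhibited by warfarin, regenerates that cofactor. In the skeleton osteocalcin is a product of mature osteoblasts that binds bone mineral, matrix Gla protein restrains mineralisation of cartilage and arteries, and Ucma is a secreted protein of cartilage. Gas6 and protein S act on cells through the receptor kinases Tyro3, Axl and Mertk, and protein S is also an anticoagulant. Transcript levels do not show how far the proteins were carboxylated.

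Levels are FPKM, fragments scaled to transcript length and to all mapped fragments of a library, as the authors deposited them. The chondrocyte table holds 1 value per sort, so its differences have no error and no p-value. The osteoblast table holds 1 value per library, and errors are ± SD over n = 2 libraries. Neither table holds counts and total depth is unknown. From the steps in low values, a read in Runx2_cHet_KO library 1 was worth 0.794 to 0.844 times a read in the other 3 osteoblast libraries, so that library was the deepest. Summed FPKM lay between 536770 and 712295 per column. The Col10+ sort carried markers of other cells: 10 of 11 macrophage genes were higher there (summed level 231 FPKM in Col2+ and 2015 FPKM in Col10+, with 5 listed at 0 in Col2+), as were all 8 neutrophil genes (0.262 and 3920 FPKM), all 4 erythroid genes (1.62 and 712 FPKM), 7 of 8 endothelial genes (12.04 and 119 FPKM) and all 4 osteoclast genes above the minimum level (20.5 and 370 FPKM). The part of these cells in the rib differences was not tested. In the bulk osteoblast libraries fewer cells of a type and less RNA per cell cannot be told apart.

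The osteocalcin genes differed between the rib sorts and between the osteoblast genotypes. Bglap was listed at 0 in the Col2+ sort and was at 21.7 FPKM in the Col10+ sort. In osteoblasts it was at 21.7 and 32.6 FPKM with genotype Runx2_cHet_KO and was listed at 0 in both Runx2_cHom_KO libraries. Its neighbour Bglap2 had the same pattern, with 0.0439 FPKM in Col2+, 5.83 FPKM in Col10+, 24.7 and 22.8 FPKM in Runx2_cHet_KO, and 0 and 0.205 FPKM in Runx2_cHom_KO. The Col10+ sort and the Runx2_cHet_KO libraries were thus high, the Col2+ sort and the Runx2_cHom_KO libraries were near 0, and the osteoblast groups did not overlap. Bglap and Bglap2 are near-identical and share reads, so the split between them is uncertain: the ratio of Bglap to Bglap2 was 3.72 in Col10+ and 0.877 and 1.43 in the Runx2_cHet_KO libraries. The sum over Bglap, Bglap2 and the related Bglap3 does not depend on that split. It was 0.0439 FPKM in Col2+, 27.7 FPKM in Col10+, 46.8 and 56.1 FPKM in Runx2_cHet_KO, and 0 and 0.346 FPKM in Runx2_cHom_KO.

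**Figure D1:**
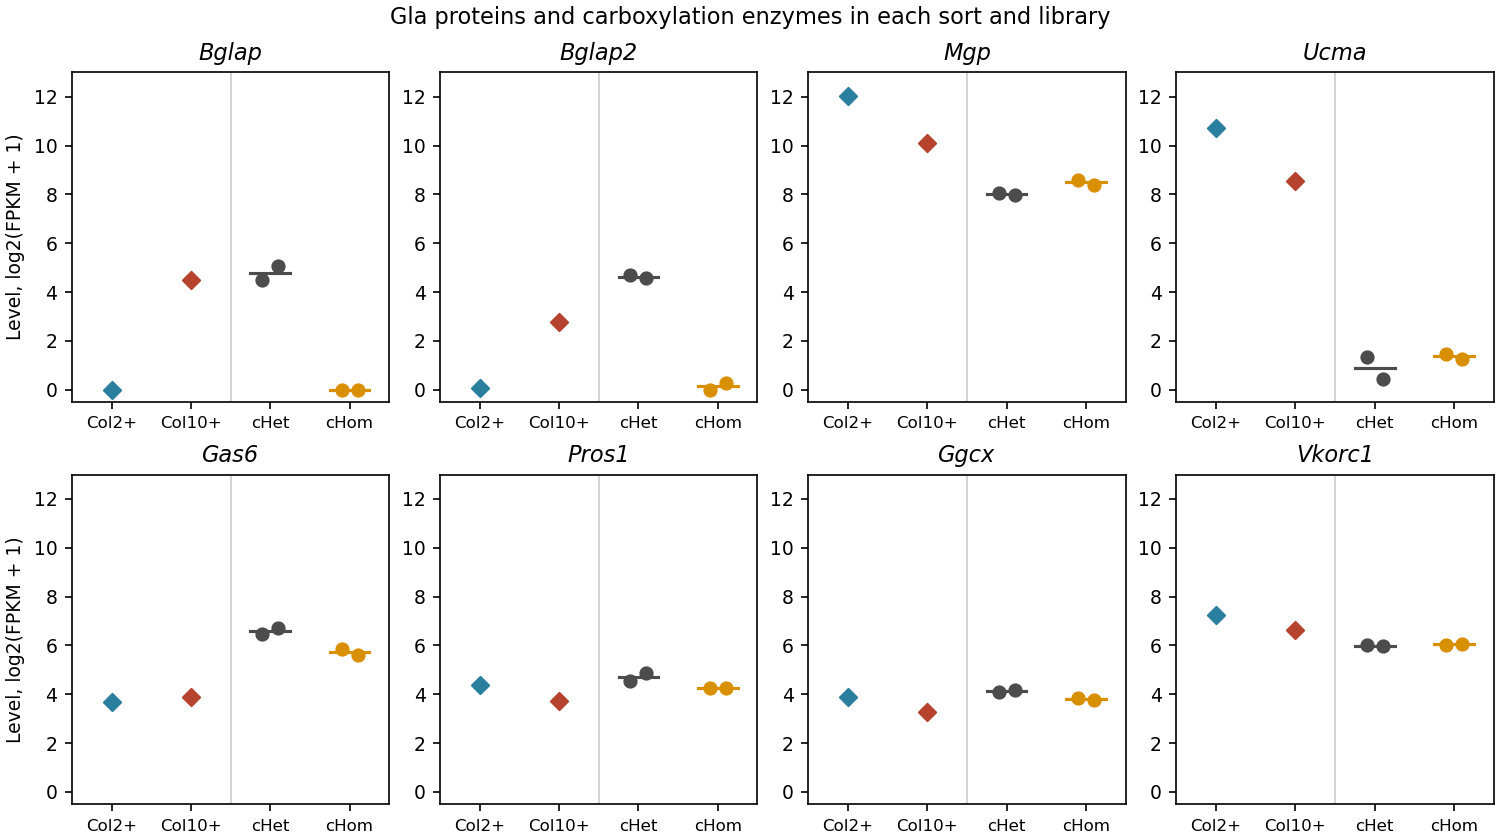
Level of each gene as log2(FPKM + 1) in the Col2+ and Col10+ rib sorts (diamonds, 1 group value each) and in the 2 Runx2_cHet_KO (cHet) and 2 Runx2_cHom_KO (cHom) osteoblast libraries (circles, with a line at the mean of the plotted values). Bglap and Bglap2 sit near 0 in Col2+ and cHom, Mgp and Ucma are highest in Col2+, and Ggcx and Vkorc1 span little; the rib and osteoblast tables were normalised separately.

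In the osteoblasts both osteocalcin genes fell. The change in Runx2_cHom_KO relative to Runx2_cHet_KO on the log2(FPKM + 1) scale was -4.79 for Bglap (standard error 0.22, limma adjusted p = 0.00298) and -4.49 for Bglap2 (standard error 0.17, limma adjusted p = 0.00187). For the sum of the 3 rows the change was -5.49 (standard error 0.20, limma adjusted p = 0.00143). A gene was called here when its adjusted p was under 0.05 and its change reached a size of 1, and p-values were adjusted over all 11909 genes tested. With this rule 2 of the 8 genes were called, both lower, beside 3.69% of all genes tested (1.39% lower and 2.3% higher). The groups did not overlap in 7 of the 8 genes, 5 lower and 2 higher, beside 58.0% of all genes tested (31.3% lower and 26.7% higher), so groups that do not overlap were common among all genes. Both entered the test only through the Runx2_cHet_KO libraries, where they reached the 1 FPKM minimum, so a difference was built into their entry. Because Runx2_cHom_KO values of 0 have no ratio, no fold is given, and the size of the log2 change depends on the added 1 FPKM. By that size Bglap and Bglap2 were the third and the fourth of the falls over all genes tested, after the small nucleolar RNA Snora61, which was not called and Dmp1, which encodes a matrix protein of osteocytes.

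The calls need both Runx2_cHom_KO libraries. Without Runx2_cHom_KO library 1 the limma adjusted p was 0.150 for Bglap and 0.0713 for Bglap2. Without Runx2_cHom_KO library 2 it was 0.113 for Bglap and 0.0548 for Bglap2. These fits kept the genes of the full fit. With the minimum applied again to the 3 remaining libraries, Bglap and Bglap2 were not tested without a Runx2_cHet_KO library. The changes themselves stayed between -5.07 and -4.36 for the 2 genes with any 1 library left out, and the lone library of a group is then assumed to vary like the other group. The same holds for every osteoblast call below, since limma called 0 genes without Runx2_cHom_KO library 1, with 1692 at an unadjusted p under 0.05. Without library 2 it called 1 gene, the small nucleolar RNA Snord61, named after its values were seen. An exact permutation test of 2 libraries against 2 cannot give a two-sided p under 0.333. The labels do not tie libraries to separate embryos, so the p-values rest on a spread between libraries that may be technical.

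**Figure D2:**
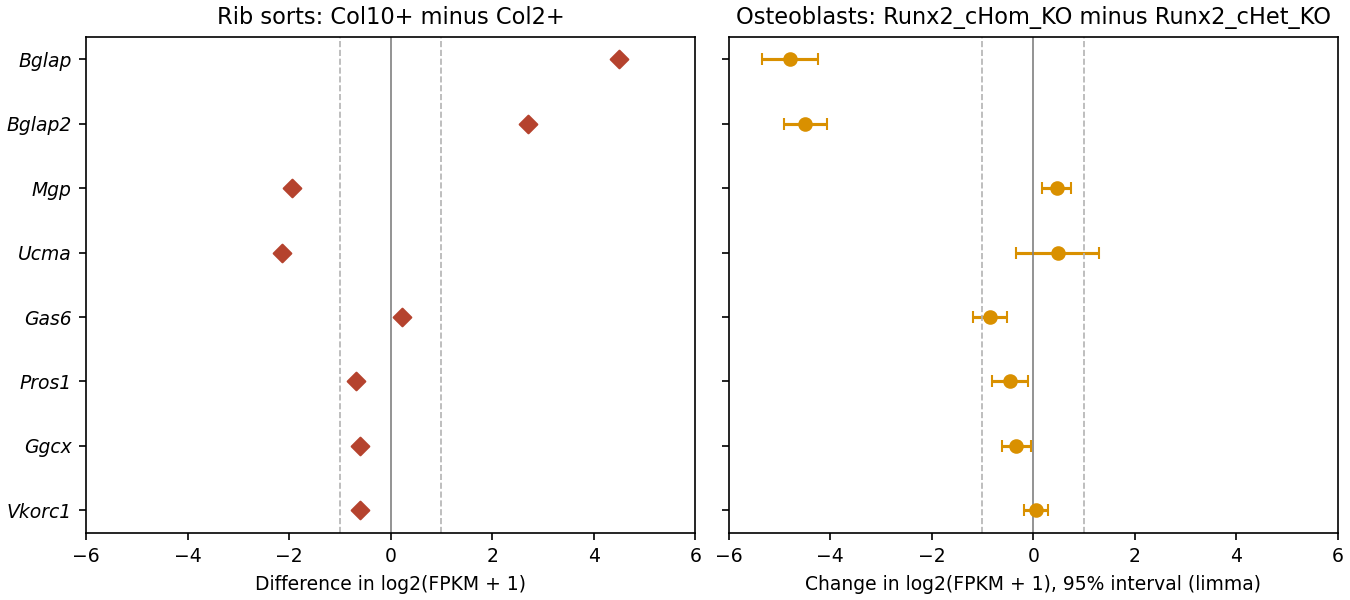
Left, difference in log2(FPKM + 1) between the Col10+ and Col2+ rib sorts, with no error because each sort has 1 value; right, change in log2(FPKM + 1) between Runx2_cHom_KO and Runx2_cHet_KO osteoblasts with limma's 95% interval. Dashed lines mark a size of 1: Bglap and Bglap2 lie beyond it to the right in the ribs and to the left in the osteoblasts, Mgp and Ucma lie beyond it to the left in the ribs, and the other genes lie inside it.

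The genes around the osteocalcin cluster were looked up after the fall was seen. In RefSeq chromosome order Bglap3, Bglap2 and Bglap lie next to each other, with Paqr6, Smg5 and Tmem79 on one side and Pmf1, Slc25a44 and Sema4a on the other. Smg5 was at 9.79 and 10.6 FPKM in Runx2_cHet_KO and at 7.33 and 7.49 FPKM in Runx2_cHom_KO, a log2 change of -0.41 (standard error 0.12, limma adjusted p = 0.109). Pmf1, a kinetochore gene, was at 14.0 and 10.7 FPKM and at 7.09 and 9.27 FPKM, a change of -0.54 (standard error 0.19, limma adjusted p = 0.147). Both genes were lower without overlap of the groups, as were 31.3% of all genes tested, and neither passed the test. Slc25a44 was at 5.07 and 5.99 FPKM and at 5.27 and 5.47 FPKM, with a change of -0.03 (limma adjusted p = 0.914). Bglap3 stayed under 1 FPKM, with 0.372 and 0.739 FPKM in Runx2_cHet_KO and 0 and 0.141 FPKM in Runx2_cHom_KO.

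**Figure D3:**
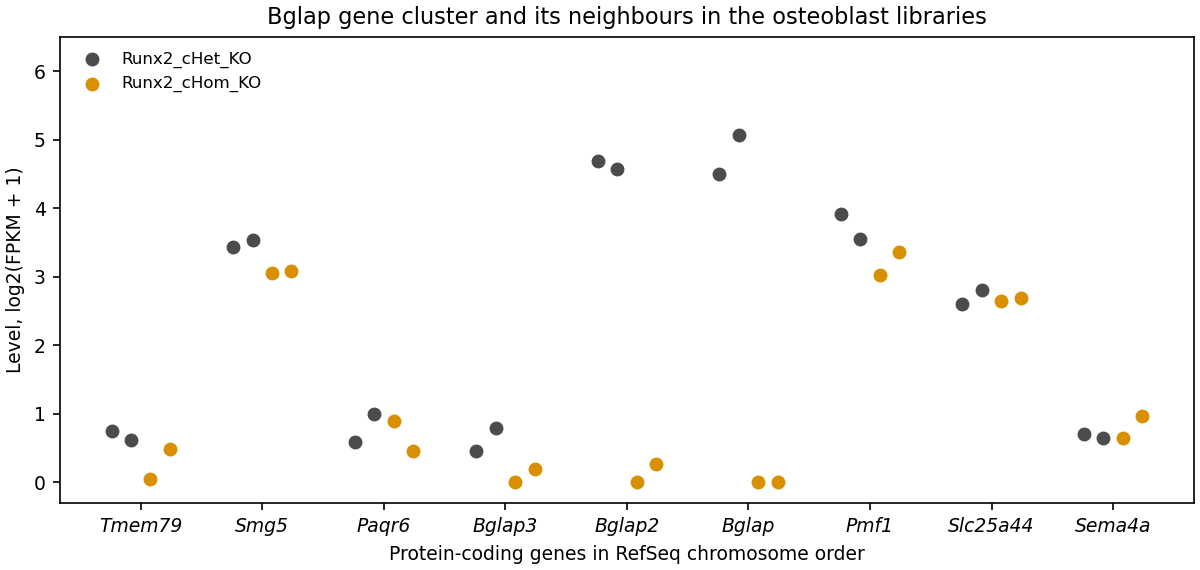
Level as log2(FPKM + 1) of Bglap, Bglap2, Bglap3 and the 3 nearest protein-coding genes on each side, in RefSeq chromosome order, with 1 point for each of the 4 osteoblast libraries. Bglap and Bglap2 separate by more than 4 units between the genotypes, while Smg5, Pmf1 and Slc25a44 differ by less than 1.

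Runx2 binds the letters ACCACA, and the osteocalcin promoter is the classic place where this was studied. The Bglap promoter is shown because Bglap had the largest change of the 8 genes between the Runx2 genotypes, and the Ucma promoter because it holds the same letters in a gene that was not called. Both come from RefSeq, build GRCm38.p6, and run from 250 bases before to 50 bases after the annotated start. The table held promoters of 6 of the 8 genes. Capitals mark ACCACA (bound by RUNX factors), TTACATCA (the element called OSE1, bound by Atf4) and TATAAA (the TATA box), each searched on both strands. The words were chosen with the promoters in view, and a SOX core word searched at first was dropped and is not shown. The Bglap promoter, minus strand, is chr3:88384417-88384716, and the Ucma promoter, plus strand, is chr2:4975872-4976171.
Bglap: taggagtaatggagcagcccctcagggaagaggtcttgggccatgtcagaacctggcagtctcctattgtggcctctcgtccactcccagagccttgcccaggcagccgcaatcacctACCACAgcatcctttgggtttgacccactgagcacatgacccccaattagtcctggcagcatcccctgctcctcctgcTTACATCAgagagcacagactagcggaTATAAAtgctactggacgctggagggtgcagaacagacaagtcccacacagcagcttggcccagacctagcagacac
Ucma: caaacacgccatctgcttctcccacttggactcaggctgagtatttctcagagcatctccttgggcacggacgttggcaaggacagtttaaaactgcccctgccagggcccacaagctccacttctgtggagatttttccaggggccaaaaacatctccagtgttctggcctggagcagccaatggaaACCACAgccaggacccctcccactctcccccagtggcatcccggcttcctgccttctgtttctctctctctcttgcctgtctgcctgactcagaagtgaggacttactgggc

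In the Bglap promoter ACCACA begins 132 bases, TTACATCA 54 bases and TATAAA 27 bases before the start, and no match overlaps another. In the Ucma promoter ACCACA begins 62 bases before the start. The promoters of Gas6, Pros1, Ggcx and Vkorc1 held none of the 3 words. Among 32851 promoters of 300 bases, 16.8% held ACCACA, 1.1% TTACATCA and 13.6% TATAAA on either strand. A match describes letters and not a bound site.

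The factors known to act at the Bglap promoter were compared as a list of 9 genes. In the osteoblasts 2 of 9 were called lower and 0 higher, beside 1.39% lower and 2.3% higher over all genes tested, and the median log2 change was -0.55 beside -0.03. Sp7, an osteoblast factor that depends on Runx2, fell from 45.2 ± 7.74 to 12.1 ± 0.886 FPKM (limma adjusted p = 0.00988). Dlx3, a homeodomain factor, fell from 4.41 ± 0.296 to 1.26 ± 0.315 FPKM (limma adjusted p = 0.0260). Runx2 itself was at 43.4 and 53.9 FPKM and at 32.9 and 32.6 FPKM, and the difference did not pass (limma adjusted p = 0.0707). Atf4, the factor of the OSE1 element, was at 126 ± 0.0771 and 170.0 ± 1.23 FPKM (limma adjusted p = 0.0575).

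In the rib sorts, which have no test, a gene counted as different when the sorts differed by 1 or more in log2(FPKM + 1), a 2-fold step, and at least 5 FPKM was reached in the higher one. By that limit the same list had 2 genes higher in Col10+ and 1 lower among 7 at 5 FPKM or more, beside 13.8% higher and 14.2% lower of 8354 genes. Sp7 was at 0.374 and 19.4 FPKM and Dlx5 at 0.137 and 5.09 FPKM, Col2+ first here and below, while Atf4 was at 896 and 223 FPKM. Osteoblast markers stood beside Bglap in that sort: 7 of 10 were higher and 2 lower, although their summed level was 18336 FPKM in Col2+ and 14998 FPKM in Col10+.

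Mgp and Ucma were abundant in the rib sorts and ran opposite to osteocalcin across them. Mgp was at 4216 FPKM in Col2+, where it was the eighth most abundant row with 0.743% of the summed FPKM, and at 1090 FPKM in Col10+, 3.87-fold lower. Ucma was at 1673 FPKM in Col2+ and 377 FPKM in Col10+, a 4.43-fold difference. By the rib limit 4 of the 8 genes differed, Bglap and Bglap2 higher and Mgp and Ucma lower, beside 28.0% of 8354 genes (13.8% higher and 14.2% lower). All 8 reached 5 FPKM in a sort, Bglap and Bglap2 in Col10+ alone. The median of genes abundant in both sorts was shifted by -0.36 on the log2 scale. With columns centred on it Mgp and Ucma differed by -1.59 and -1.78, and the same 4 genes passed, while the share of all differing genes that were higher in Col10+ moved from 49.2% to 72.9%.

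In osteoblasts, whose table was normalised separately, the 2 cartilage Gla genes parted. Strain, age and library kit also differ from the ribs and cannot be told apart from tissue. Mgp was still abundant, at 264 and 253 FPKM in Runx2_cHet_KO and at 382 and 335 FPKM in Runx2_cHom_KO. Both Runx2_cHom_KO values lay above both others. The change of 0.46 (standard error 0.11) did not pass (limma adjusted p = 0.0723), and its 95% interval ran from 0.18 to 0.75. Ucma was barely present, at 1.499 and 0.362 FPKM in Runx2_cHet_KO and at 1.77 and 1.40 FPKM in Runx2_cHom_KO. The groups overlapped and the change of 0.48 (standard error 0.33) did not pass (limma adjusted p = 0.409). Without Runx2_cHet_KO library 2, the library lowest in Ucma, the Ucma change was 0.04, and without library 1 it was 0.92 (limma adjusted p = 0.0927).

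Markers of other cells are given as values, and not every set moved with the osteoblast genotypes. The counts called stand beside 1.39% lower and 2.3% higher of all genes tested. The 10 chondrocyte markers summed to 422 and 315 FPKM in Runx2_cHet_KO and to 613 and 784 FPKM in Runx2_cHom_KO, with 0 of 10 called. The library lowest in Ucma was also lowest in these markers, but the library highest in Ucma was not the highest in them. The 10 fibroblast, tendon and perichondrium markers summed to 1776 and 2182 FPKM and to 2970 and 2872 FPKM, with 3 called higher. Skeletal muscle markers summed to 3.81 and 5.72 FPKM and to 53.1 and 69.0 FPKM, and all 6 tested were called higher. Of these Ckm, Mylpf and Actc1 reached the 1 FPKM minimum only in Runx2_cHom_KO, so a difference was built into their entry. The same holds for Myh11 of the smooth muscle list. Endothelial markers summed to 44.5 and 27.7 FPKM and to 88.2 and 74.1 FPKM, with 1 of 9 called higher, while smooth muscle and pericyte markers summed to 112 and 187 FPKM and to 112 and 85.5 FPKM, with 1 of 7 called higher. Macrophage markers summed to 440 FPKM in Runx2_cHet_KO library 1 and to between 64.1 and 86.7 FPKM in the other 3 libraries. Erythroid markers summed to 471 and 28.0 FPKM and to 464 and 162 FPKM, neutrophil markers to at most 3.01 FPKM in any library and osteoclast markers to between 97.2 and 112 FPKM, with 1 of 3 tested osteoclast genes called higher. The 10 osteoblast markers were detected in every library, with 3 called lower and sums of 18701 and 16595 FPKM in Runx2_cHet_KO and of 13513 and 13662 FPKM in Runx2_cHom_KO. The part of these cells in the osteoblast changes was not tested.

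Gas6, the ligand of the TAM receptors, was the third of the 8 genes to pass the adjusted p. It was at 86.4 and 103 FPKM in Runx2_cHet_KO and at 56.0 and 48.3 FPKM in Runx2_cHom_KO, 1.82-fold lower, and both Runx2_cHom_KO libraries lay below both others. The log2 change of -0.85 (standard error 0.14, limma adjusted p = 0.0295) passed on p and not on the size limit of 1. At any size 3 of the 8 genes passed, all lower, beside 7.32% of genes tested (3.54% lower and 3.78% higher). Without Runx2_cHom_KO library 1 the Gas6 adjusted p was 0.216, and without library 2 it was 0.248. It also missed 0.05 with no filter on low values (0.0592), without trended and robust variances (0.0630) and with a replicate block (0.0683). In the rib sorts, whose table was normalised separately, Gas6 was at 11.7 and 13.9 FPKM, within the 2-fold limit.

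Pros1 differed less. It was at 22.3 and 28.3 FPKM in Runx2_cHet_KO and at 17.9 and 18.2 FPKM in Runx2_cHom_KO. The groups did not overlap, but the change of -0.45 (standard error 0.14) did not pass (limma adjusted p = 0.115), except without Runx2_cHet_KO library 1 (limma adjusted p = 0.0411). In the ribs Pros1 was at 20.1 and 12.04 FPKM, under the 2-fold limit. Gas6 was 0.583 times Pros1 in Col2+ and 1.16 times in Col10+, against 2.65 to 3.87 times in the osteoblast libraries. The rib and osteoblast libraries also differ in strain, age and library kit, which cannot be told apart from tissue.

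Among the receptors of these ligands 1 was called, beside 3.69% of all genes tested. Axl rose from 27.5 ± 0.179 to 57.2 ± 0.115 FPKM in Runx2_cHom_KO osteoblasts, 2.08-fold (log2 change 1.03, standard error 0.10, limma adjusted p = 0.0125), just past the size limit. It stood higher in both Runx2_cHom_KO libraries while its ligand Gas6 stood lower in both. Mertk was at 11.9 ± 1.63 and 11.04 ± 0.595 FPKM and Tyro3 at 3.21 ± 0.903 and 3.39 ± 0.890 FPKM, with overlapping groups (limma adjusted p of 0.710 and 0.897). In the ribs Axl was at 22.4 and 36.7 FPKM and Mertk at 18.6 and 12.2 FPKM. The 2-fold limit was passed by 0 of the 4 genes of this list at 5 FPKM or more, beside 28.0% of 8354 genes.

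The enzymes that make the Gla residues varied little. Ggcx was at 13.6 FPKM in Col2+, 8.68 FPKM in Col10+, 15.8 and 17.0 FPKM in Runx2_cHet_KO, and 13.2 and 12.5 FPKM in Runx2_cHom_KO. Vkorc1 was more abundant, at 152 and 98.8 FPKM in the rib sorts, 63.7 and 61.3 FPKM in Runx2_cHet_KO, and 63.8 and 66.1 FPKM in Runx2_cHom_KO. Across all 6 columns the highest Ggcx level was 1.96 times the lowest and the highest Vkorc1 level 2.47 times. The ratio was 2.35 for Pros1, so a narrow range was not particular to the enzymes, and it was 8.81 for Gas6, 16.6 for Mgp and 4629 for Ucma. In osteoblasts the Ggcx change was -0.33 (95% interval -0.61 to -0.05, limma adjusted p = 0.141) and the Vkorc1 change 0.05 (95% interval -0.18 to 0.29, limma adjusted p = 0.756). Neither passed, although neither gene's groups overlapped, which also held for 58.0% of all genes tested. Vkorc1 exceeded Ggcx 11.1-fold in Col2+ and 11.4-fold in Col10+, and 3.60-fold to 5.28-fold in the osteoblast libraries. Tissue, strain, age and library kit all differ between the rib and osteoblast columns and cannot be told apart in these ratios or ranges.

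The wider vitamin K cycle list had 8 genes, Ggcx and Vkorc1 included. In osteoblasts 0 of 8 were called in either direction, beside 3.69% of all genes tested (median log2 change 0.01 beside -0.03). By limma 0 of the 8 had an adjusted p under 0.05, and 1, Ggcx, had an unadjusted p under 0.05 (0.0294). Calu, an endoplasmic reticulum protein that inhibits the carboxylase, was at 203 ± 10.3 and 199 ± 5.67 FPKM, and the lipoprotein receptor Lrp1 at 113 ± 16.8 and 139 ± 3.51 FPKM. In the ribs 1 of 8 was higher in Col10+ and 1 lower, beside 13.8% and 14.2% of all genes, a similar share, and the median was -0.51 beside -0.31. Aifm2, an oxidoreductase that reduces vitamin K, was at 0.839 and 5.69 FPKM, and Nqo1, another quinone reductase, at 14.8 and 5.66 FPKM.

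**Figure D4:**
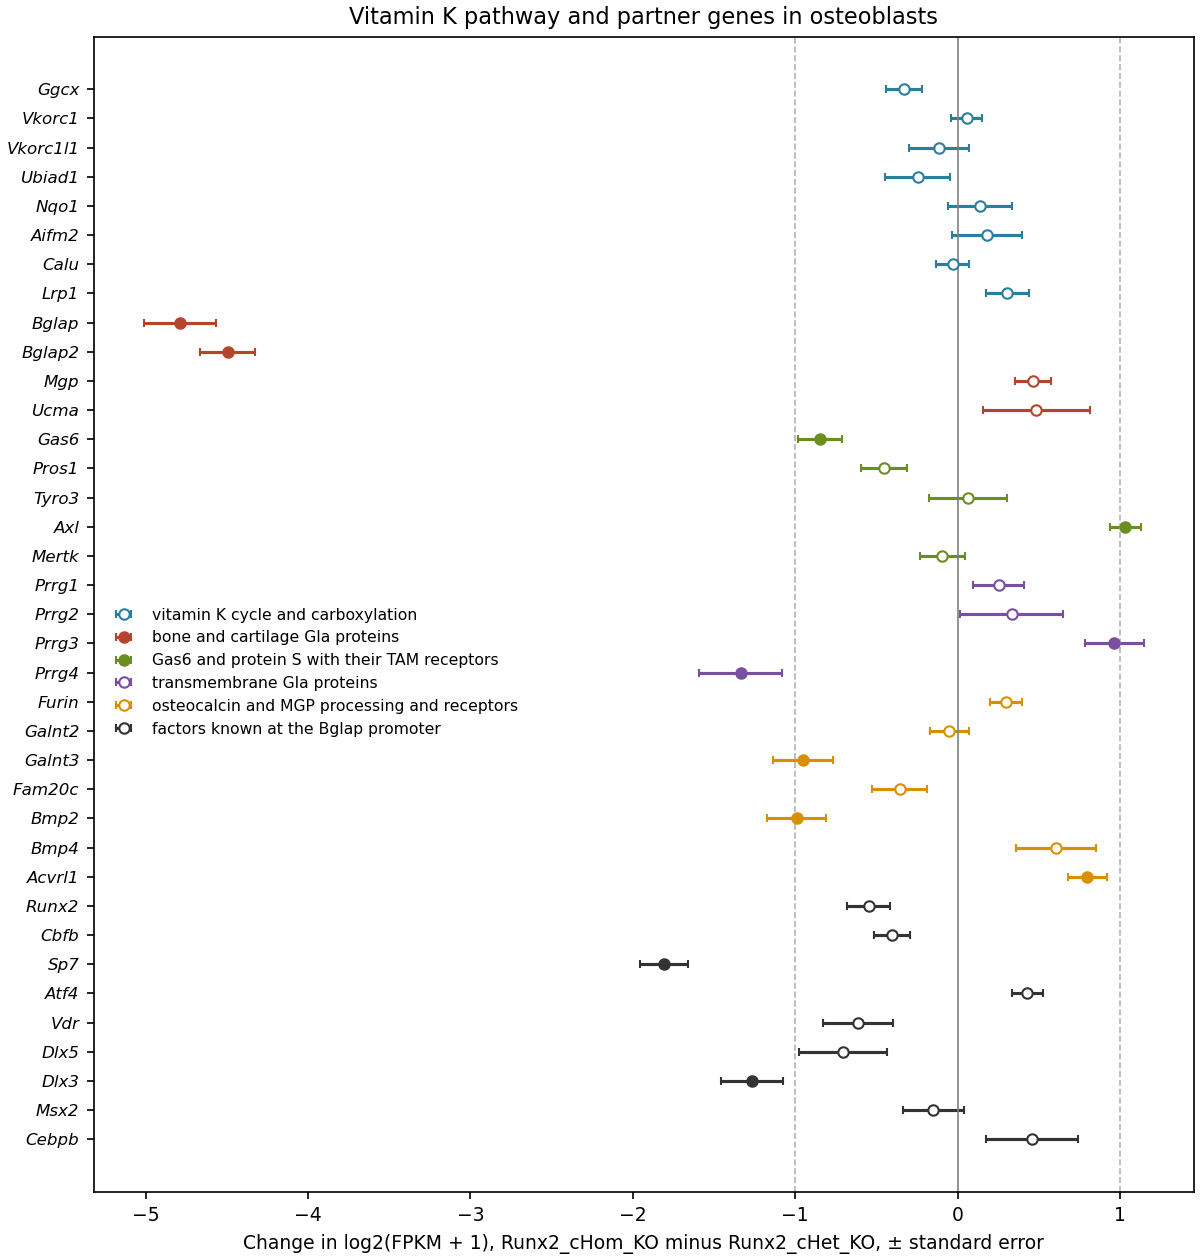
Change in log2(FPKM + 1) in Runx2_cHom_KO relative to Runx2_cHet_KO osteoblasts, with limma's standard error, for the genes of the vitamin K and partner lists that could be tested; filled circles have an adjusted p under 0.05 and dashed lines mark a size of 1. The carboxylation genes at the top lie within 0.5 of 0, Bglap and Bglap2 lie below -4, and Gas6 and Axl lie on opposite sides.

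Other Gla proteins were scarce. Of 6 coagulation Gla genes none reached 1 FPKM in 2 osteoblast libraries, so 0 were tested. In the ribs F10, which encodes coagulation factor X, was listed at 0 in Col2+ and was at 11.3 FPKM in Col10+. Markers of macrophage, neutrophil, erythroid, endothelial and osteoclast cells were also higher in that sort, and the source of F10 was not tested. Of 4 transmembrane Gla genes 1 was called lower in osteoblasts and 0 higher, beside 1.39% lower and 2.3% higher of all genes tested. Prrg4 was at 2.76 and 3.61 FPKM in Runx2_cHet_KO and at 0.371 and 0.983 FPKM in Runx2_cHom_KO (log2 change -1.34, limma adjusted p = 0.0423). Prrg4 reached the 1 FPKM minimum only in Runx2_cHet_KO, so a difference was built into its entry. Its adjusted p was 0.0532 without Runx2_cHet_KO library 1 and 0.0836 without library 2. Prrg3 was at 2.39 and 3.24 FPKM and at 6.83 and 6.01 FPKM, a change of 0.97 (limma adjusted p = 0.0396) that missed the size limit.

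Genes that process osteocalcin or act with matrix Gla protein were a list of 10, of which 7 could be tested in osteoblasts. Of these 0 were called, beside 3.69% of all genes tested. Furin, the protease that cleaves pro-osteocalcin, was at 23.9 and 23.8 FPKM and at 29.4 and 29.6 FPKM (limma adjusted p = 0.130). Bmp2, a ligand that matrix Gla protein binds, was at 22.0 ± 5.16 and 10.4 ± 0.963 FPKM, a change of -0.99 (limma adjusted p = 0.0384) that missed the size limit. Galnt3 and Acvrl1 likewise passed on p alone and were named after their values were seen. The glycosyltransferase Galnt3 was at 2.62 ± 0.236 and 0.865 ± 0.0163 FPKM, and the endothelial receptor Acvrl1 at 9.56 ± 0.612 and 17.3 ± 0.987 FPKM. Galnt3 reached the 1 FPKM minimum only in Runx2_cHet_KO, so a difference was built into its entry. In the ribs 2 of 7 were higher in Col10+ and 2 lower, beside 13.8% and 14.2% of all genes. Fam20c, the kinase that phosphorylates secreted mineral-binding proteins, was at 25.1 and 54.3 FPKM and Acvrl1 at 0.324 and 6.56 FPKM, while Galnt2 was at 57.9 and 24.2 FPKM and Bmp4 at 12.1 and 3.59 FPKM.

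Likeness of pattern was described over the 6 columns by the root mean square difference of centred log2(FPKM + 1) values, among 8778 named genes at 5 FPKM or more in a column, with the 8 genes themselves left out as candidates. The rib and osteoblast tables were normalised separately and the points share libraries, so no test was made. Slc13a5, a citrate transporter, was the nearest candidate to both Bglap (difference 1.19) and Bglap2 (difference 0.81). It was at 0.328 and 11.1 FPKM in the rib sorts, at 33.9 and 22.1 FPKM in Runx2_cHet_KO, and at 3.46 and 3.44 FPKM in Runx2_cHom_KO. The next were the channel gene Panx3 and Glipr1 for Bglap, and Mlip and the collagen gene Col22a1 for Bglap2. Nearest to Mgp was the proteoglycan gene Fmod (difference 0.12), at 1770 and 435 FPKM in the ribs, 85.3 and 96.2 FPKM in Runx2_cHet_KO, and 141 and 121 FPKM in Runx2_cHom_KO, followed by Kank1 and Il17d.

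Nearest to Ucma were the cartilage collagen genes Col2a1 (difference 0.64) and Col9a2 (difference 0.67), then A2m. In the osteoblast libraries Col2a1 was at 158 and 72.1 FPKM in Runx2_cHet_KO and at 166 and 265 FPKM in Runx2_cHom_KO. It was lowest in the library in which Ucma was lowest, but not highest in the library in which Ucma was highest. Col2a1 was picked by its likeness to Ucma over these same libraries. Gas6 was nearest to Ndnf, Stox2 and the collagen-binding integrin gene Itga11 (differences 0.12 to 0.14). Pros1 was nearest to Map4, Rev1 and Rpl37, Ggcx to Yipf2, Sltm and Hdgfrp2, and Vkorc1 to Gnl3l, Lman2l and Cdca4, with differences of 0.03 to 0.08 for these 3 genes. Among these candidates the osteocalcin genes had the most distant nearest genes of the 8, and the carboxylation enzymes and Pros1 the closest. The values were centred and not scaled, so the difference tends to grow with a gene's own range. Bglap and Bglap2, which share reads, also could not be each other's nearest gene. That order is therefore no measure of how unusual a pattern is.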

How the data were processed

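RNA sequencing of 10 mouse libraries was read from the authors' deposited tables of FPKM, per the file headers 1 value for each rib sort and 1 for each osteoblast library. The submitters' processing notes name TopHat2 2.1.0, Cufflinks, Cuffdiff 2.2.1 and build mm9, without their order, and do not say how rib replicates were combined. Per the labels' protocols, the kits differed: TruSeq on 100 ng of RNA for the ribs, and a stranded SMARTer Pico kit on 1.7 ng for the osteoblasts. A further 1 column of the chondrocyte table matched no sample and was not used.

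Rows with no gene name (3444 in the chondrocyte table, holding 8.48% of the Col2+ and 17.0% of the Col10+ total) and rows whose names had become dates (25 and 26) were left out; of repeated names the row with the highest mean was kept. Of the distinct names 21991 and 22115 matched reference symbols of GRCm38.p6, used for names, gene order and promoters. An exact 0 may be an estimate that failed, since Hmgcs1, which most cells use, was listed at 0 throughout the 4 osteoblast libraries.

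In osteoblasts limma 3.58.1 (R 4.3.3) with trended, robust variances was fitted to log2(FPKM + 1), which understates changes of low genes, for the 11909 genes that reached 1 FPKM in 2 libraries, and p was adjusted by Benjamini-Hochberg over all of them. It was tested on simulated data. Standard errors and intervals are limma's. Alternatives covered the pseudocount, the filter, centring, the variance model, a replicate block and leaving out each library.

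The 8 genes and all lists were chosen with earlier results of these data known, and some list genes are not reported here. Named genes were the 8, the called genes of each list (up to 4) with up to 3 others by mean FPKM, and the 3 nearest genes by pattern.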

Additional observations from a re-analysis of the deposited data

How the results depend on the processing

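With 439 osteoblast genes called, limma called 248 with no filter on low values and between 0 and 609 with 1 library left out and the genes of the full fit kept. Of the 8 Gla pathway genes 2 were called, and between 0 and 2 with 1 library left out: 0 without Runx2_cHom_KO library 1 or 2, and 2 under every other alternative that kept those genes or all 4 libraries. Keeping those genes was chosen after seeing the data. With the filter applied to the 3 remaining libraries instead, between 0 and 619 genes were called and 0 of the 8 in each of the 4 fits: without a Runx2_cHet_KO library Bglap and Bglap2 failed the filter and had no test, and without a Runx2_cHom_KO library they did not pass. With the genes kept, all 4 tests of Bglap and Bglap2 without a Runx2_cHet_KO library passed. Over the single genes, 156 recomputed values kept their direction and side of the limit and 8 lost the call, those of Bglap and Bglap2 without a Runx2_cHom_KO library; none reversed. Direction could not move under a changed filter, variance model or block, which leave the log2 change as it was. Ucma could not be fitted at a 5 FPKM minimum. The pseudocount moved the Bglap change most, from -4.79 to -8.06 with 0.1 FPKM added. The rib count stayed at 4 of 8 in all 5 alternatives. Lower minimum levels could not change it, since all 8 genes reached 5 FPKM in a sort. Smaller pseudocounts could not lower it, since they enlarge the differences, so centring was the alternative that could.

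Same-numbered libraries did not deviate together (correlation -0.11 over 6621 genes), so the numbers were not taken as a pairing. A fit with the replicate block called 293 genes and 2 of the 8, and under it the Gas6 adjusted p was 0.0683. The crossed pairing, added after seeing the data, called 458 genes and 2 of the 8. Depth is unknown, so low levels, such as those of Ucma in osteoblasts (0.362 to 1.77 FPKM), have no counting error attached.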

Other observations

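The zeros of Bglap were compared with those of other osteoblast genes after its values were seen. Of the 11909 genes tested, 2 were listed at 0 in both Runx2_cHom_KO libraries, Bglap and the histone gene Hist1h2ao. Bglap was the 1 gene listed so among 7106 genes at 5 FPKM or more in both Runx2_cHet_KO libraries. In Runx2_cHet_KO, Hist1h2ao was at 1.12 and 9.53 FPKM. Dmp1, which had the largest fall of the called genes, kept values of 0.900 and 2.86 FPKM in Runx2_cHom_KO, from 124 and 55.9 FPKM. The summed level of Bglap, Bglap2 and Bglap3 was 0 and 0.346 FPKM in the same libraries, so the low Bglap value was not matched by a higher value in a sister row.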
